A study of Mus musculus with 6 samples.

Results

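The genes described here are 34 voltage-gated ion channel genes of the mouse, 34 of 21883 protein-coding genes of the RefSeq table for GRCm38.p6, and they were taken by symbol from a fixed list. All 34 matched the table. They encode 7 sodium channel subunits, 15 calcium channel subunits and 12 potassium or cation channel subunits, among them the cyclic nucleotide-gated Hcn2. Their open chromatin was read by ATAC-seq in E14.5 retinas of the C57BL/6 strain, an embryonic day when ganglion cells are born. In this assay the transposase Tn5 cuts accessible DNA and tags it for sequencing. One genotype, Atoh7 SE/SE, carries the mutated Atoh7 shadow enhancer on both alleles and is called SE/SE; its control, Atoh7 +/+, is called wild type. Each genotype has 3 libraries, each from the retinas of a single animal. Atoh7 encodes a basic helix-loop-helix factor that retinal ganglion cells need to form, and a shadow enhancer is a further element whose activity overlaps that of a primary enhancer. Whole retinas were used, so fewer cells of a type and less accessibility per cell cannot be told apart.

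Voltage-gated channels open when the membrane potential changes and let sodium, calcium or potassium ions through. Sodium channels start the action potential, calcium channels couple it to transmitter release and gene regulation, and potassium channels end it and set how often a cell can fire. In the retina, ganglion cells are the projection neurons that send action potentials along the optic nerve. Accessible chromatin at a channel gene is not a measure of its transcription, which was not measured here.

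The SE/SE libraries held 39115, 42722 and 44242 peaks, against 31340, 34797 and 27873 in wild type, so the SE/SE lists were longer in every case. Per the labels, SE/SE libraries had 15, 16 and 16 PCR cycles and wild-type libraries 17, 18 and 19, without saying which library had which. Amplification and genotype therefore cannot be told apart. Counts of peaks are therefore given beside counts from lists cut to equal length, the 27873 peaks of highest signal value in each library. Of 11 neural retina marker genes, 10 had a peak at a gene end in 6 of 6 libraries, and Six3 in 4. Gene-end peaks were found in every library at 2 of 5 pigment epithelium, 2 of 4 lens, 1 of 4 endothelial, 0 of 4 microglia and blood, 4 of 4 mesenchyme and 2 of 4 muscle marker genes. Tyr, Rpe65 and Tyrp1 of the pigment epithelium, Cryaa and Cryba1 of the lens, Cdh5, Pecam1 and Tek of the endothelium, and Myh6 and Myl2 of muscle had no gene-end peak in any library. Each of these non-retinal counts was the same in all 6 libraries.

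Promoter sequences from RefSeq (GRCm38.p6) were matched to 26 of the 34 genes, with 40 annotated starts. The sequences below are the 250 bases before an annotated start, written 5′ to 3′ on the gene's strand, with each CpG pair in capitals. They are shown because channel gene starts with and without peaks differed in CpG content. The first set has a peak in 6 of 6 libraries over the printed bases. It holds Scn8a (sodium, chr15:100870395-100870644, plus strand) and Cacna2d1 (calcium, chr5:15934441-15934690, plus strand). It also holds starts inside Cacna1c (calcium, chr6:119108496-119108745, minus strand), Kcnh2 (potassium, chr5:24329592-24329841, minus strand) and Kcnh1 (potassium, chr1:192190527-192190776, plus strand). The Kcnh2 start lies 10002 bp from the nearer gene end, apart from the gene-end peak of Kcnh2.
Scn8a: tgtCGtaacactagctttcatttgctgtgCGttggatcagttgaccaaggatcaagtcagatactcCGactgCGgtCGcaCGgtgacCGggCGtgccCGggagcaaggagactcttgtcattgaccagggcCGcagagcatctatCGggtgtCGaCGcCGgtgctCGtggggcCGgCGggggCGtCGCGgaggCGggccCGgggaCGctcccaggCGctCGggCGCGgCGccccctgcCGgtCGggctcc
Cacna2d1: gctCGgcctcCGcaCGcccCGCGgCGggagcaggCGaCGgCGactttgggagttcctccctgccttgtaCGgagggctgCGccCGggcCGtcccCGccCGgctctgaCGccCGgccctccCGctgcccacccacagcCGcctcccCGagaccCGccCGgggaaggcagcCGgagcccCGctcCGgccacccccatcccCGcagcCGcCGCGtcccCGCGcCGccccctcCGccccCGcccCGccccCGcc
Cacna1c (start inside the gene): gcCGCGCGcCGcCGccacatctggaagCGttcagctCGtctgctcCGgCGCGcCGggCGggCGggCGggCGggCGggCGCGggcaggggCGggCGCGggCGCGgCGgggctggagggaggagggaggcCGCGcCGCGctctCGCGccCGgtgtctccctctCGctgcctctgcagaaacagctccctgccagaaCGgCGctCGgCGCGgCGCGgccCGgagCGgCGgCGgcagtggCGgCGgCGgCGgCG
Kcnh2: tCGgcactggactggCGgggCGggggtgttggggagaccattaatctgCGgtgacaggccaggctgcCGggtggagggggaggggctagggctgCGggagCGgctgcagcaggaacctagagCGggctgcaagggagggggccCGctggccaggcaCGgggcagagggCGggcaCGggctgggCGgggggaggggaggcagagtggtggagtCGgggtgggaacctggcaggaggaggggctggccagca
Kcnh1: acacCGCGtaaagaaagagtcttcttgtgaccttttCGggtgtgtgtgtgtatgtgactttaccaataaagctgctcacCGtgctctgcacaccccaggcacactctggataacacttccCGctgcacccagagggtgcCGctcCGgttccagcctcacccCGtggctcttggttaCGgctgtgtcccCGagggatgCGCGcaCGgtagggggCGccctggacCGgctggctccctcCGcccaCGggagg

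The start of Scn2b (sodium beta subunit, chr9:45117626-45117875, plus strand) had no peak within 1 kb in any library and is shown for contrast.
Scn2b: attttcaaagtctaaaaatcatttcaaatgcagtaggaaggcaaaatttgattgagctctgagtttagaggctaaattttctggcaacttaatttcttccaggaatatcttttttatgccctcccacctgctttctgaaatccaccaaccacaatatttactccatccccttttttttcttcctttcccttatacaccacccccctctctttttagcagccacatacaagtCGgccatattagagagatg

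The 250 bases before Scn2b were 38.4% G or C and held 1 CpG pair. Those before Scn8a, Cacna2d1 and Cacna1c were 68.0%, 82.4% and 82.8% G or C and held 30, 36 and 48 CpG pairs. Kcnh2 and Kcnh1 lay between, with 14 and 17 CpG pairs in the same length. Over the whole 300-base windows of the promoter table, the 28 channel gene starts with a peak within 1 kb in 6 of 6 libraries had a median of 27.0 CpG pairs, the 4 starts with a peak in 1 to 5 libraries 4.0, and the 8 starts with none 4.5. Over all 21262 promoters of the table the medians were 22.0 for those with a peak in 6 of 6 libraries, 11 for those with a peak in 1 to 5, and 3.0 for those with none. Low CpG content did not go with an absent peak in every case: the lowest count among the 28 starts was 3, and the highest among the 8 was 23.

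**Figure D1:**
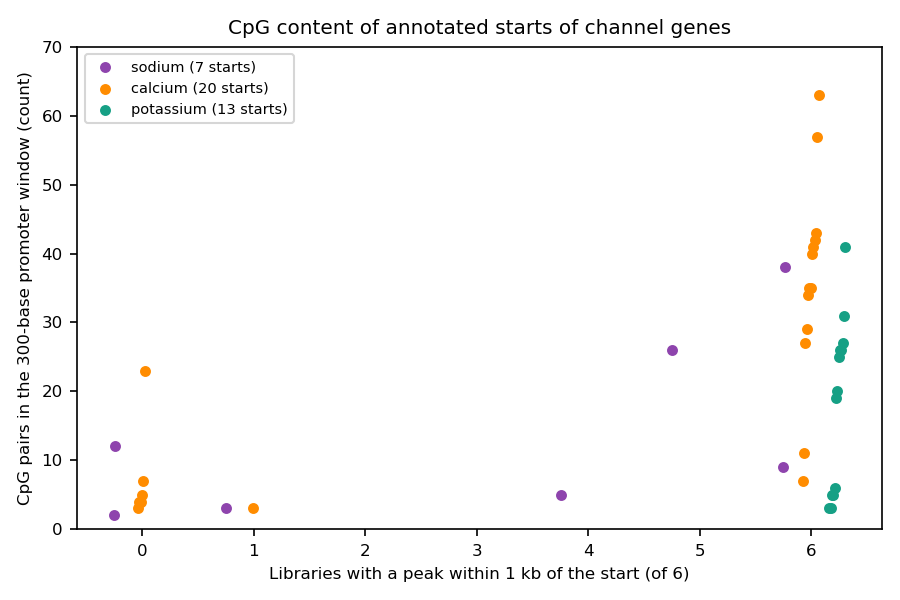
CpG pairs in the 300-base promoter window (y axis, count) of each of the 40 annotated starts of 26 channel genes, against the number of the 6 libraries with a peak within 1 kb of the start (x axis). Each point is a start, coloured by channel class and shifted sideways for visibility; starts with 6 libraries span 3 to 63 CpG pairs and those with 0 span 2 to 23.

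Motifs were searched on both strands of the same windows. The GC box GGGCGG was in 18 of 40 channel gene windows (45.0%) and in 46.2% of all windows. The E-box CAGCTG was in 13 of 40 (32.5%), against 15.6% of all windows, and the E-box CAGATG in 4 of 40 (10.0%), against 14.6%. The windows of 3 of the 4 Kcnc2 starts overlap each other, as do those of 2 Cacnb4 starts, so the 40 windows are not independent sequences. TATAAA was in 5.0% of channel gene windows and 12.6% of all windows. TGACGTCA (the cyclic AMP response element), GCGCATGC (the core of the NRF1 motif) and TTCAGCACC (one part of the RE1 element bound by REST) were in 0 of 40, against 2.23%, 3.51% and 0.414% of all windows. GGACAG, the other part of RE1, was in 12.5% and 22.3%. None of these motifs contains another.

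A peak at a gene end, here one within 1 kb of either end of the annotated gene, was found at 25, 25 and 27 of the 34 channel genes in SE/SE libraries and at 23, 24 and 22 in wild-type libraries. The means were 25.7 ± 1.15 and 23.0 ± 1.0 (SD, n = 3 each), and the ranges of the genotypes did not overlap. The same count over all protein-coding genes was 13023, 13222 and 13242 in SE/SE against 12511, 12753 and 12252 in wild type, also without overlap. With lists of equal length the channel gene counts were 23, 23 and 21 in SE/SE and 23, 22 and 22 in wild type, and the difference between the means was 0. A gene-end peak in 6 of 6 libraries was found at 22 channel genes (64.7%), beside 55.6% of all protein-coding genes. Of the others, 1 had one in all 3 SE/SE and no wild-type library, 4 in another combination of 1 to 5 libraries, and 7 in none. In the full lists the class with the most variable gene ends was sodium, while potassium genes gave the same count in every library.

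**Figure D2:**
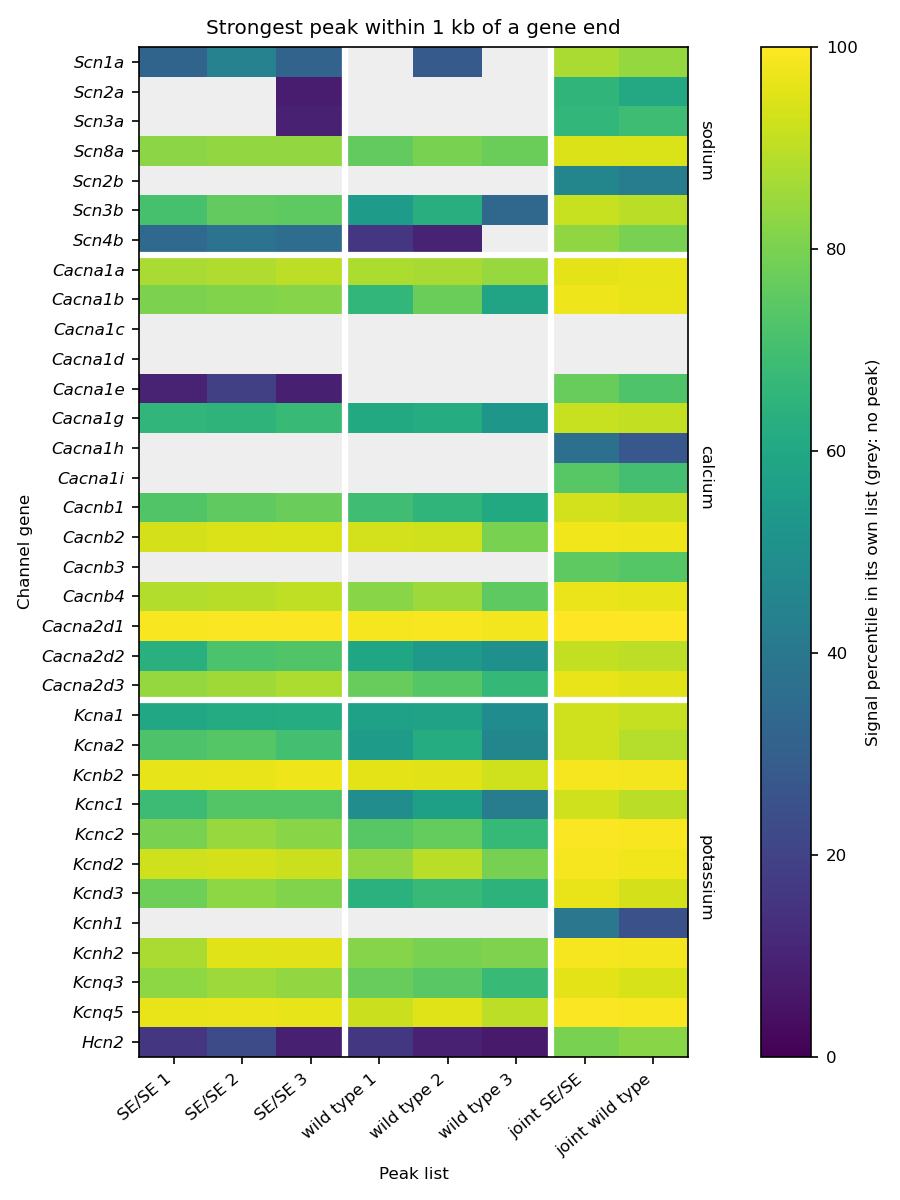
Signal percentile of the strongest peak within 1 kb of a gene end (colour, 0 to 100 within its own list) for the 34 channel genes (rows, by class) in the 3 SE/SE libraries, the 3 wild-type libraries and the authors' 2 joint lists (columns). Grey marks no peak; 22 genes are filled in all 6 libraries and 7 in none, while Cacna1c and Cacna1d alone are grey in both joint lists.

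Among the sodium channel genes, a gene-end peak was found at 4, 4 and 6 of 7 in SE/SE libraries and at 3, 4 and 2 in wild-type libraries (4.67 ± 1.15 and 3.00 ± 1.0, SD, n = 3 each), and these ranges overlapped. The 4 pore-forming alpha subunit genes differed from each other. Scn8a (Nav1.6, the main channel of mature nodes and initial segments) had a gene-end peak in every library, at signal percentiles 82.6, 83.7 and 83.7 of the SE/SE lists and 75.8, 79.8 and 77.4 of the wild-type lists. A percentile is the rank of a peak's deposited signal value among the peaks of the same list, from 0 for the weakest to 100, and does not compare signal between libraries. Scn1a (Nav1.1) had a gene-end peak in all 3 SE/SE libraries, at percentiles 32.4, 44.2 and 32.0, and in wild type 2 alone among wild-type libraries, at 28.3. The widest of these peaks, chr2:66440073-66440433 in SE/SE 2, lies inside the gene at its upper-coordinate end. Scn2a (Nav1.2) and Scn3a (Nav1.3, prominent in embryonic neurons) had a gene-end peak in SE/SE 3 alone, at percentiles 7.77 and 9.28, near the bottom of that list. Scn1a, Scn2a and Scn3a stand near each other on chromosome 2, and no region was counted for more than one of them.

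The 3 sodium beta subunit genes, whose products modulate gating and adhesion, also split. Scn3b had a gene-end peak in 6 of 6 libraries, at percentiles 70.9, 75.9 and 75.2 in SE/SE and 55.4, 62.7 and 33.5 in wild type. Scn4b had one in all 3 SE/SE libraries, at 34, 38.0 and 35.9, and in wild type 1 and 2, at 15.7 and 9.62, with none in wild type 3. Scn2b had none in any library. With lists of equal length the sodium counts were 4, 4 and 2 in SE/SE and 3, 3 and 2 in wild type.

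Among the 15 calcium channel genes, 10 had a gene-end peak in each SE/SE library and 9 in each wild-type library. The gene that differs is Cacna1e. It encodes the R-type pore subunit Cav2.3. It alone, 1 of 34 channel genes, had a gene-end peak in all 3 SE/SE and no wild-type library. Of the 21883 protein-coding genes, 0.859% (188) had this pattern and none (0%) the opposite one. Its peaks, at chr1:154884340-154884463, stood at percentiles 9.54, 18.9 and 8.74 of the SE/SE lists. Both joint lists held a peak there, at percentile 76.8 of the joint SE/SE list and 72.4 of the joint wild-type list. With lists of equal length Cacna1e lost its gene-end peaks, and 9 calcium channel genes had one in each of the 6 libraries.

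The pore-forming alpha1 subunit genes had gene-end peaks less uniformly than the auxiliary ones, 3 of 8 against 6 of 7 with one in 6 of 6 libraries, a difference for which no test was run. The 3 were Cacna1a (P/Q-type) and Cacna1b (N-type), whose channels trigger transmitter release, and the T-type gene Cacna1g. Cacna1c and Cacna1d (both L-type), Cacna1h and Cacna1i (both T-type) had none in any library. Of the auxiliary genes, Cacnb1, Cacnb2 and Cacnb4 (beta subunits, which bring the pore to the membrane) and Cacna2d1, Cacna2d2 and Cacna2d3 (alpha2delta subunits) had one in every library, and Cacnb3 had none. With annotated starts also counted, Cacna1c, Cacna1d, Cacna1e and Cacnb3 had a peak in 6 of 6 libraries too, which narrows the gap between the subfamilies. Cacna2d1 held the highest gene-end percentiles of the 22, 99.1, 99.3 and 99.3 in SE/SE and 98.7, 98.9 and 98.4 in wild type.

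Of the 12 potassium and cation channel genes, 11 had a gene-end peak in every library of both genotypes (91.7%). They were Kcna1, Kcna2, Kcnb2, Kcnc1, Kcnc2, Kcnd2, Kcnd3, Kcnh2, Kcnq3, Kcnq5 and Hcn2, and Kcnh1 was the exception. The potassium counts were 10, 10 and 10 in SE/SE and 11, 10 and 11 in wild type with lists of equal length. Kcnb2 (a delayed rectifier) stood at percentiles 96.3, 96.7 and 97.4 in SE/SE and 95.9, 95.7 and 92.9 in wild type. Hcn2, the pacemaker channel gene, had the lowest gene-end percentile of the 22 in each of the 6 lists, 15.7, 22.8 and 8.85 in SE/SE and 16.2, 9.09 and 7.39 in wild type. Over the 22 genes with a gene-end peak in 6 of 6 libraries, the median percentile was 81.4, 84.0 and 83.0 in SE/SE and 75.0, 75.4 and 66.7 in wild type. Over all 12171 such genes it was 82.7, 84.3 and 84.6 in SE/SE and 78.4, 80.8 and 76.0 in wild type. The channel genes' median was below that of all genes in each of the 6 lists.

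Several genes without a regular gene-end peak had one at a start inside the annotated gene. RefSeq gives such a start for Scn2a at 47922 bp from the gene's outer end, for Cacna1c at 88889 bp, for Cacna1d at 137670 bp, for Cacna1e at 158865 bp, for Kcnh1 at 1633 bp, and for Cacnb3 at 3892 and 6331 bp. Each of these 7 starts had a peak within 1 kb in 6 of 6 libraries. The Scn2a peak stood at percentiles 73.0, 72.0 and 74.0 in SE/SE and 69.4, 69.7 and 63.7 in wild type, far above the single gene-end peak of the gene. The Cacna1c peak stood at 61.2, 64.3 and 76.3 in SE/SE and 52.7, 55.0 and 45.3 in wild type. The Cacna1d peak stood at 67.4, 72.0 and 71.2 in SE/SE and 60.7, 58.7 and 49.5 in wild type. The Cacna1e peak stood at 45.5, 55.6 and 57.0 in SE/SE and 38.6, 50 and 27 in wild type, and did not reach the 250 bases before the start in any library.

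With a gene end or an annotated start counted, 28 of 34 channel genes (82.4%) had a peak in 6 of 6 libraries, beside 59.3% of all protein-coding genes. Of the 34, 0 had one in all 3 SE/SE and no wild-type library. The count per library was 30, 30 and 31 in SE/SE and 29, 30 and 28 in wild type, so the ranges of the genotypes met at 30. All 12 potassium genes and 13 of 15 calcium genes had such a peak in every library, and sodium genes numbered 5, 5 and 6 in SE/SE and 4, 5 and 3 in wild type. Scn1a, Scn3a and Scn4b remained partial, and Scn2b, Cacna1h and Cacna1i had none in any library. The 8 genes without an entry in the promoter table, Kcnb2, Kcna1, Kcnq3, Cacna1a, Cacna1g, Cacna1h, Scn3a and Scn3b, entered this count by gene ends alone.

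The authors' joint lists, 1 per genotype, held a gene-end peak at 32 of 34 channel genes in SE/SE and at 32 in wild type. Both lacked one at Cacna1c and Cacna1d. The joint lists are far longer than those of single libraries, with 120772 peaks for SE/SE and 104991 for wild type. The joint SE/SE list held 556 peaks inside or nearest to the channel genes, of which 121 (21.8%) overlapped no joint wild-type peak, beside 22.0% of all joint SE/SE peaks. The joint wild-type list held 481, of which 27 (5.61%) overlapped no joint SE/SE peak, beside 6.28% of all joint wild-type peaks. Sodium, calcium and potassium genes were alike in the first share, at 21.5%, 21.7% and 21.9%. Of the joint peaks at channel genes, 385 of 556 in SE/SE and 308 of 481 in wild type overlapped no peak of any single library (69.2% and 64.0%), beside 66.0% of all joint SE/SE and 60.5% of all joint wild-type peaks.

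Beyond gene ends, overlapping peaks from the 6 libraries were joined into 46780 consensus regions, and a region was given to a channel gene if its midpoint lay inside the gene or if that gene had the nearest gene end within 100 kb. The channel genes held 204 regions, 29 at sodium, 117 at calcium and 58 at potassium genes, and 173 of them were inside the genes. The genes are long, with a median length of 164699 bp against 17170 bp over all protein-coding genes, and held a median of 5 regions against 1. Inside the genes there were 2.26 regions per 100 kb, beside 2.75 over all genes. Whether a region lies in an exon or an intron was not analysed here.

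The SE/SE libraries had a peak in 160, 174 and 193 of the 204 regions and the wild-type libraries in 99, 122 and 85. The means were 176 ± 16.6 and 102 ± 18.7 (SD, n = 3 each), a ratio of 1.72, and the ranges did not overlap. Over all 46780 regions the means were 40985 ± 3196 and 28848 ± 3580, a ratio of 1.42, and those ranges did not overlap either. Calcium genes had the ratio 1.87 (90, 99 and 110 regions in SE/SE against 53, 65 and 42 in wild type), sodium genes 1.80 (21, 23 and 28 against 12, 17 and 11) and potassium genes 1.47 (49, 52 and 55 against 34, 40 and 32). In each class the ranges did not overlap. With lists of equal length the channel genes had 94, 93 and 94 regions in SE/SE and 88, 89 and 85 in wild type. The ratio was 1.07, beside 1.06 over all regions. The ranges of the pooled counts did not overlap. Neither did those over all regions, 27233, 27642 and 27670 in SE/SE against 25964, 26755 and 25403 in wild type. The ranges of each class did overlap: sodium genes had 16, 14 and 12 regions in SE/SE against 11, 12 and 11 in wild type, calcium genes 47, 44 and 48 against 44, 44 and 42, and potassium genes 31, 35 and 34 against 33, 33 and 32. The part of list length, depth and PCR cycles in the larger ratio was not tested further.

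**Figure D3:**
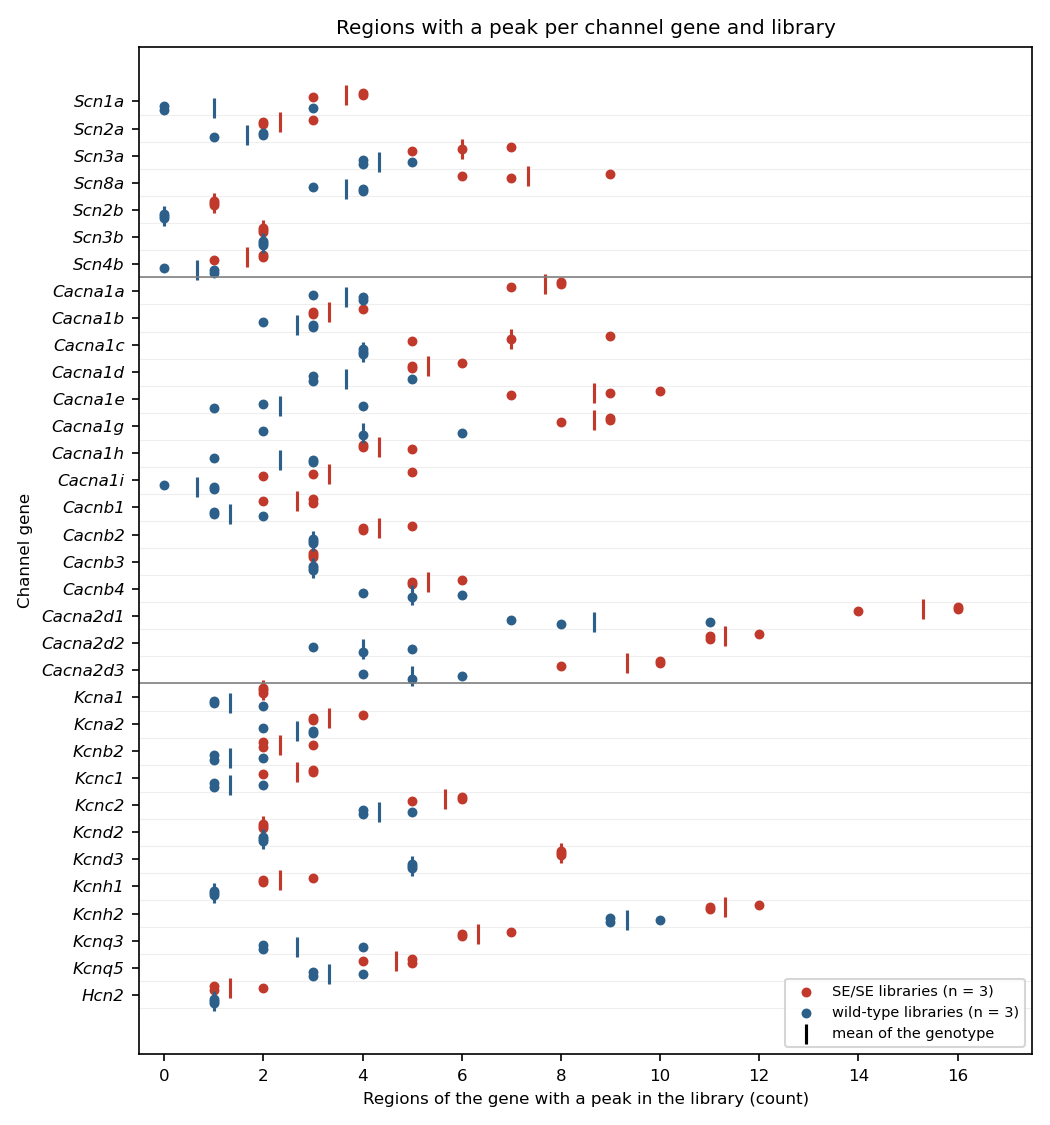
Number of regions with a peak (x axis, count) at each of the 34 channel genes (rows, by class) in each SE/SE library and each wild-type library (points, n = 3 each, SE/SE above wild type), with the mean of each genotype as a vertical tick. At 16 genes every SE/SE point lies right of every wild-type point, and at 3 genes (Scn3b, Cacnb3 and Kcnd2) all 6 points are equal.

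Gene by gene, the mean number of regions was higher in SE/SE at 31 of 34 channel genes, equal at 3 and lower at 0. At 16 genes the ranges did not overlap, with SE/SE higher, beside 17.9% (2818) of the 15700 protein-coding genes with a region; the opposite was seen at 0 channel genes, beside 0.0446% (7) of all. The exact two-sided permutation test over the 20 assignments of 6 libraries cannot give a p under 0.1, and these 16 genes had that p. After Benjamini-Hochberg adjustment over the 15700 genes it was 0.556, so no channel gene passed the 0.05 threshold, and 0 of all genes did so, adjusted or unadjusted. Genes with more regions separate more often. Of genes with 10 to 17 regions, 6 of 6 channel genes did so beside 71.5% of all, and with 6 to 9 regions 6 of 10 beside 53.6%. With 3 to 5 regions it was 3 of 12 beside 28.1%, and with 1 or 2 regions 1 of 6 beside 6.55%. With lists of equal length Scn8a alone of the 34 kept ranges that did not overlap. The share of all genes that did so with those lists was not computed.

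Among sodium alpha genes, Scn8a had 7, 6 and 9 regions with a peak in SE/SE and 4, 4 and 3 in wild type. Scn3a had 5, 6 and 7 against 4, 5 and 4, and Scn1a 3, 4 and 4 against 0, 3 and 0, so the ranges met at both genes. Scn2a had 2, 2 and 3 regions against 1, 2 and 2. Of the beta genes, Scn2b had its 1 region in each SE/SE library and none in wild type. Scn3b had 2 in every library, and Scn4b 1, 2 and 2 in SE/SE and 1, 1 and 0 in wild type.

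Among calcium alpha1 genes, Cacna1e had 7, 9 and 10 regions in SE/SE and 1, 4 and 2 in wild type, the widest gap in this subfamily. Cacna1a had 7, 8 and 8 against 4, 4 and 3, and Cacna1c 5, 7 and 9 against 4, 4 and 4. Cacna1g had 8, 9 and 9 against 4, 6 and 2, and Cacna1i 2, 3 and 5 against 1, 1 and 0. Cacna1h also did not overlap, and Cacna1b and Cacna1d did. The alpha2delta genes held many regions: Cacna2d1 14, 16 and 16 in SE/SE against 8, 11 and 7 in wild type. Cacna2d2 had 11, 11 and 12 against 4, 5 and 3, and Cacna2d3 8, 10 and 10 against 5, 6 and 4. Of the beta subunit genes, the ranges of Cacnb2 did not overlap, those of Cacnb1 and Cacnb4 did, and Cacnb3 had 3 regions in every library.

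Among potassium genes, Kcnh2 (whose human channel carries the rapid delayed rectifier current of the heart) had 11, 11 and 12 regions in SE/SE and 9, 10 and 9 in wild type, the most in its class. Kcnd3 (an A-type channel) had 8 in each SE/SE library and 5 in each wild-type library, with no spread in either. Kcnq3 (M-current) had 6, 6 and 7 against 2, 4 and 2, and Kcnh1 2, 2 and 3 against 1, 1 and 1. Kcnb2 had 2, 3 and 2 against 1, 2 and 1, and these ranges met. The 7 other potassium class genes had ranges that met or were equal, from 1 to 6 regions in any library.

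Of the 204 channel gene regions, 81 (39.7%) had a peak in 6 of 6 libraries, beside 52.1% of all regions. The share was 34.5% at sodium, 34.2% at calcium and 53.4% at potassium genes. Over 1 kb from any gene end it was 34.8% of channel gene regions, beside 39.3% of all such regions. A peak in 3 of 3 SE/SE and 0 of 3 wild-type libraries was found in 22 regions (10.8%), beside 8.23% of all 46780 regions, and the opposite pattern in 0, beside 0.0321%. By class these were 2 sodium, 15 calcium and 5 potassium regions, 6.90%, 12.8% and 8.62% of the regions of each class. Gene-distal regions are more often of this kind: over 1 kb from any gene end, 19 of 161 channel gene regions (11.8%) had it, beside 10.6% of all such regions. With lists of equal length 0 of the 22 kept a peak in all 3 SE/SE libraries. Of the 112 channel gene regions in those lists, 1 then had the SE/SE pattern, at chr15:101046826-101047208 by Scn8a, which in the full lists also had a peak in wild type 1, and 0 had the opposite one. Over all 31360 regions of the equal-length lists, 433 (1.38%) had the SE/SE pattern and 98 (0.312%) the opposite one. Leaving out 1 library changed the 22 to 41 without SE/SE 1, 34 without SE/SE 2, 23 without SE/SE 3, and 29, 42 and 22 without wild type 1, 2 and 3. The rule then asks for fewer libraries and is easier to meet, which favours larger counts.

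**Figure D4:**
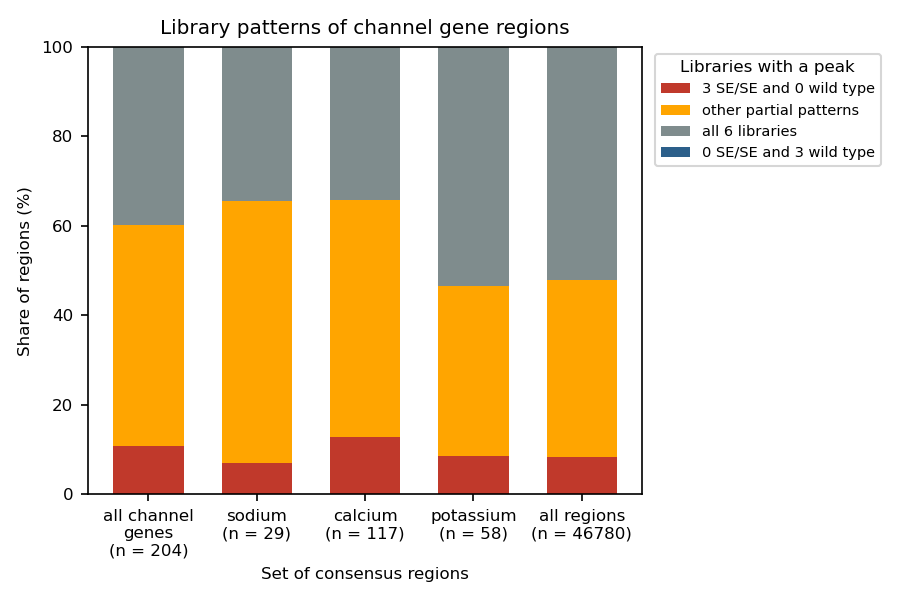
Share of consensus regions (y axis, percent) with a peak in 3 SE/SE and 0 wild-type libraries, in all 6 libraries, in 0 SE/SE and 3 wild-type libraries, or in another combination, for the 204 channel gene regions, each channel class and all 46780 regions (bars, n below each). Potassium regions are most often in all 6 libraries (53.4%), and the wild-type pattern, 0 at channel genes and 0.0321% of all regions, is too small to be seen.

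The 22 regions lay at 13 genes. Cacna2d2 held 4, Cacna2d1 3, and Cacna1e, Cacna1g, Cacna2d3 and Kcnd3 2 each, while Scn8a, Scn2b, Cacna1c, Cacna1i, Kcnb2, Kcnh1 and Kcnq3 held 1 each. All were inside the gene except 1 of Cacna1g, at chr11:94408123-94408335, 162 bp off its lower-coordinate end. They were narrow and weak in the SE/SE lists, with a median width of 181 bp and a median percentile of 18.4, against 497 bp and 65.9 for the 81 regions shared by 6 libraries. Over all regions of these kinds the median percentiles were 18.9 and 70.9. All 22 overlapped a peak in both joint lists, the wild-type one included, as did all 3849 regions of this kind.

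At Cacna2d2 the 4 regions lay 43.4, 45.4, 52.5 and 115 kb from the lower-coordinate end, where its annotated start is. The strongest, chr9:107442989-107443201, stood at percentiles 22.9, 33.2 and 35.0 of the SE/SE lists. The joint peaks there stood at percentile 78.6 of the joint SE/SE list and 72.9 of the joint wild-type list. At Cacna2d1, chr5:15991522-15991701 and chr5:15991877-15991997 lay in the same joint SE/SE peak, with percentiles 2.25, 25.9 and 27.2 for the first and 10.9, 15.8 and 5.06 for the second. The third, chr5:16309710-16309885, stood at 20.3, 4.13 and 20.5. At Cacna2d3, chr14:29090191-29090373 stood at 17.7, 33.1 and 27.9 and chr14:29639384-29639525 at 1.0, 2.95 and 7.30, the lowest of the 22 in SE/SE 1 and 2. In the SE/SE library lists the percentiles of these regions of the 3 alpha2delta genes ran from 1.0 to 35.0.

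**Figure D5:**
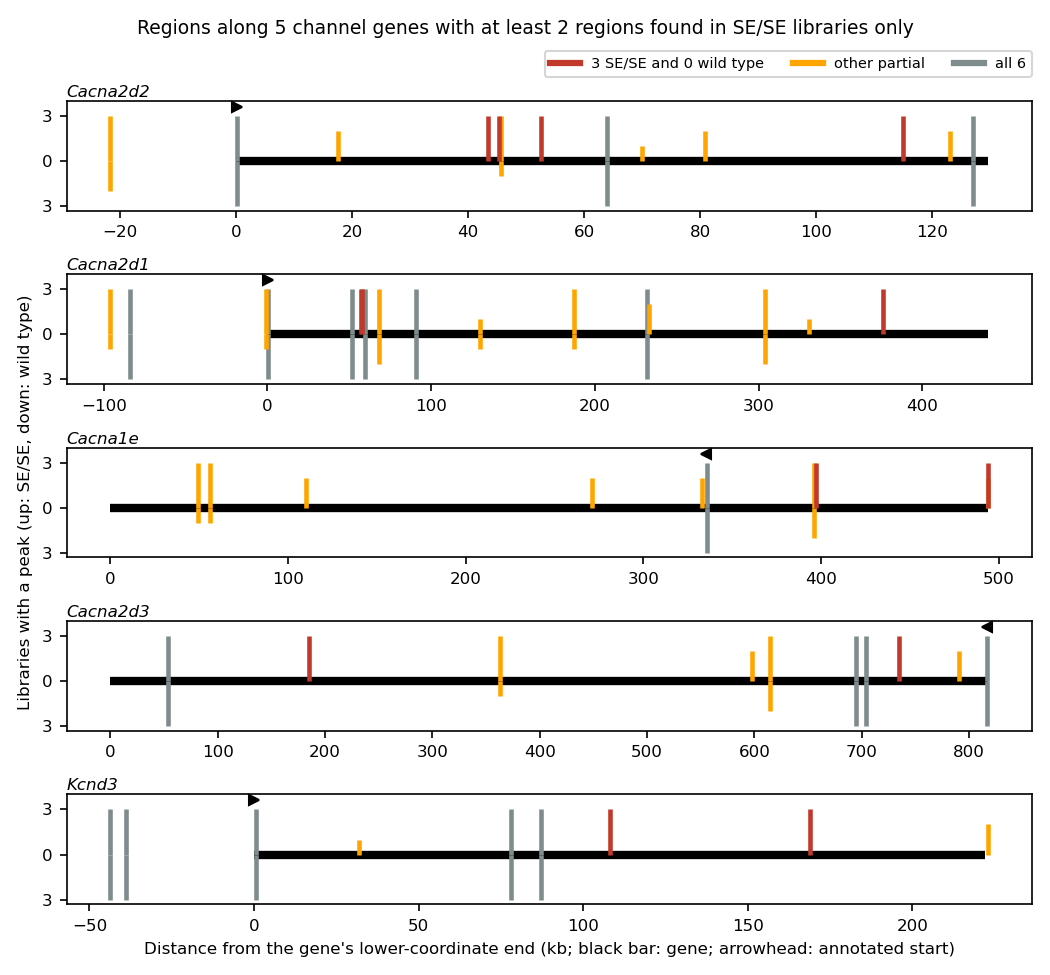
Regions along Cacna2d2, Cacna2d1, Cacna1e, Cacna2d3 and Kcnd3 as distance from the gene's lower-coordinate end (x axis, kb), with bars up for the number of SE/SE libraries and down for the number of wild-type libraries with a peak (y axis, 0 to 3); black lines are genes and arrowheads annotated starts. Red bars, 13 in all and some drawn over each other, mark regions with a peak in 3 SE/SE and 0 wild-type libraries; at Cacna1e the grey bar of all 6 libraries stands at the annotated start inside the gene.

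Regions at the other genes had percentiles of up to 40.8 in the SE/SE library lists. At Cacna1e, chr1:154788183-154788344 stood at percentiles 21.3, 18.9 and 6.30 of the SE/SE lists, apart from the gene-end region given above. At Cacna1g, the region off the gene's end stood at 22.6, 28.9 and 31.8 and chr11:94441202-94441434 at 20.5, 24.6 and 37.1. At Kcnd3, chr3:105559428-105559799 stood at 25.1, 9.87 and 17.9 and chr3:105621279-105621417 at 16.2, 12.9 and 16.8. Each value is below the median of its list. The highest value of the 22 regions was at Kcnb2, where chr1:15349219-15349441 stood at 25.2, 38.1 and 40.8.

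At Scn8a, chr15:100923499-100923658 stood at percentiles 19.2, 16.7 and 15.5 of the SE/SE lists. The Scn2b region, chr9:45121861-45122034, stood at 14.1, 16.4 and 15.7, and lay 4071 bp from the nearer gene end. At Cacna1i, chr15:80362544-80362761 stood at 22.1, 23.1 and 36.7, and at Kcnh1, chr1:192208056-192208259 stood at 13.6, 17.0 and 29.1. Some of the regions lay in a joint peak that also held other regions. The Cacna1c region, chr6:119107578-119107909, lay in the joint SE/SE peak chr6:119107113-119109606 together with a region that had a peak in 6 of 6 libraries, next to the internal start printed above. The Kcnq3 region, chr15:66285753-66285903, likewise shared its joint peak with such a region, 808 bp from the gene's end. In all, 8 of the 22 (36.4%) shared their joint SE/SE peak with another consensus region, beside 18.7% of all 3849 regions of this kind, and 2 (9.09%) with a region found in 6 of 6 libraries, beside 10.2%. The regions at Cacna1c, Cacna2d3 (the first) and Kcnb2 were also counted for a neighbouring gene, Dcp1b, Lrtm1 and Gm51415.

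Besides the 34, 61 further voltage-gated channel genes and their auxiliary subunits had a gene-end peak at 39, 42 and 42 genes in SE/SE libraries and at 32, 38 and 31 in wild-type libraries. The ranges did not overlap, as they did not over all protein-coding genes. Of the 61, 31 (50.8%) had a peak in 6 of 6 libraries, 14 in some, 16 in none and 0 in all 3 libraries of 1 genotype alone. The 7 further sodium genes had 3, 3 and 3 in SE/SE and 2, 2 and 2 in wild type, the 11 calcium genes 7, 7 and 7 against 6, 6 and 5, and the 43 potassium genes 29, 32 and 32 against 24, 30 and 24. Their 176 regions included 21 (11.9%, beside 8.23% of all regions) with a peak in 3 SE/SE and 0 wild-type libraries and 1 of the opposite kind, at chr11:33754919-33755063 by Kcnip1, a potassium channel interacting protein gene. Regions per library separated the genotypes, with SE/SE higher, at 19 of the 61, beside 17.9% of all genes with a region. Some of the 61 had no region, so the 2 shares differ in their base. The 61 were not compared with genes of as many regions.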

How the data were processed

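ATAC-seq peaks of 3 SE/SE and 3 wild-type libraries were used, with 1 peak list per library and 1 joint list per genotype. Per the submitters' processing notes, cutadapt, BWA, Genrich 0.5, bedtools 2.27.0 and limma were used with GRCm38 (mm10); their roles and settings, and how the joint lists combine replicates, are not given in the sources used here. For every peak the authors deposited a signal value, a score, and p- and q-values as −log10. The authors' deposited score equals 1000 times the deposited signal value over the peak's width, capped at 1000, to within 1 for 100% of the peaks. The deposited signal value was ranked within a list only, and the deposited −log10 p-values were not compared between libraries. No read counts were analysed here, so the depth is unknown.

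Peaks sharing at least 1 bp were merged into consensus regions. Gene positions and promoter sequences came from RefSeq tables for GRCm38.p6, which give gene ends and, for part of the genes, annotated starts; positions count from 1. Exact two-sided permutation tests over all 20 assignments were run for every gene with a region and adjusted by the Benjamini-Hochberg method. The members and the lists of other channel genes and marker genes were chosen with earlier results of these data known. Per-library values were given for genes with a partial or SE/SE-only gene-end pattern, genes with a genotype-specific region, and up to 3 genes per subfamily with the most regions. Promoters were printed for up to 1 gene per class and gene-end pattern, the gene with the most regions. That of Cacna1e was left out, as no peak covered the bases. Those bases held 6 CpG pairs, and a peak lay within 1 kb of the start in 6 of 6 libraries. Scn8a and Cacna1c also have annotated starts without a peak within 1 kb in any library, which are not printed. Alternatives covered gene-end distance, region assignment and merging, overlap, a signal value of at least 50, equal list lengths, regions per peak of the library, pairing by number and each library left out. Python 3.11.15, numpy 2.4.6, pandas 2.3.3, scipy 1.17.1 and matplotlib 3.10.9 were used, and the calling of patterns was tested on simulated data.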

Additional observations from a re-analysis of the deposited data

How the results depend on the processing

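The difference between the genotypes' mean numbers of channel genes with a gene-end peak was 2.67, and became 1.0 with annotated starts only, 1.33 with a gene end or an annotated start (an alternative chosen after seeing the data) and 0 with lists of equal length. The ratio of regions with a peak, 1.72, became 1.07 with lists of equal length and 1.29 relative to the number of peaks of each library. The count of regions with a peak in 3 SE/SE and 0 wild-type libraries, 22, became 1 with lists of equal length, a region that is not among the 22, and 22 to 42 with a library left out. The count of genes with a gene-end peak in every SE/SE and no wild-type library, 1, became 2 within 5 kb. It became 0 with annotated starts only, with a gene end or an annotated start, and with lists of equal length. It was 1 to 2 with a library left out, reaching 2 without wild type 2. The 16 genes whose regions per library did not overlap became 1 with lists of equal length and 12 relative to the number of peaks, and 16 to 23 with a library left out. The share of all genes with such ranges was not computed for these alternatives. With a library left out, the rules of these counts ask for fewer libraries and are easier to meet, which favours larger counts. Of the 186 alternatives computed, 156 stayed within the spread between libraries or 1.5 times the count, 30 moved and 0 reversed. A count, or a difference of 0, could not be labelled reversed by the rule used. The potassium gene-end difference, SE/SE minus wild type, was 0 and became -0.667 with lists of equal length, and was labelled as moved. Shorter lists hold fewer weak peaks, so the equal-length alternative removes most regions of low percentile by construction.

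Same-numbered libraries were not the most alike in every case. Their deviations from the genotype's mean over 22410 regions correlated at 0.00700, -0.0294 and 0.161, and SE/SE 1 correlated best with wild type 2 (0.172). Deviations within 3 libraries of a genotype depend on each other, and whether same-numbered libraries shared a batch was not tested. With libraries paired by number, the gene-end difference was 2.67 and the ratio of regions 1.77. In all 3 pairs, 22 of 34 genes had more regions in SE/SE. The share of all genes with this pattern was not computed, and the SE/SE list was the longer one in each pair.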
